A study of Homo sapiens with 48 samples.

Results

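LCN2 and 5 other genes that epithelia switch on during an acute phase or antimicrobial response were followed through 48 arrays of HK-2 cells, an immortalized line of human renal proximal tubular epithelium. The genes were LCN2, SAA1, C3, CFB, SLPI and PI3, and they were chosen by their measured levels, which in earlier results of these data differed between replicate numbers and with time. A probe set (the group of probes that reads 1 transcript on the array) was taken where the platform annotation gave 1 of these symbols and no other. That held for 5 of the 6 genes and 7 of the 54675 probe sets, and these 5 were among the 11356 genes tested. SAA1 had no probe set of its own. It is represented below only by a pair of probe sets that also match SAA2, 1 of them SAA4 readthrough transcripts as well, so SAA1 and SAA2 cannot be told apart.

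The cells were grown in a medium with EGF, hydrocortisone, insulin, transferrin and selenite, and were exposed near confluence to vehicle or to a compound that the labels name CsA, Fk, Ra or Nnm. The arrays fell into 3 sets that do not share controls. The CsA set held CsA and control at 12 h and 48 h. The Fk and Ra set held Fk, Ra and a shared control at 12 h and 48 h, and the Nnm set held a low dose, a high dose and a shared control at 24 h and 48 h. Each of the 16 groups had 3 arrays, numbered 1 to 3 and called biological replicates. Nothing else in the labels says how the replicates were separated, so p-values measure the spread between these arrays, which may be technical. HK-2 is a single line kept in culture, and the set with CsA is the only one whose labels name a laboratory.

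All members encode secreted proteins. LCN2 (lipocalin 2) binds bacterial siderophores and is widely used as a marker of tubular injury. SAA1 is an acute phase apolipoprotein, C3 is the central component of complement, and CFB is the protease of its alternative pathway. SLPI and PI3 (elafin) are inhibitors of neutrophil elastase with antimicrobial activity. Epithelial cells induce such genes through NF-kB and C/EBP factors downstream of IL-1, IL-17, TNF and IL-6.

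The promoters of LCN2 and CFB are shown because these were the 2 of 6 members matched in the promoter table, and because their levels followed different patterns below. Both come from RefSeq on GRCh38.p14, plus strand, from 250 bases before to 50 after the gene start, and capitals mark the motif matches named below. The LCN2 window is chr9:128149203-128149502 and the CFB window is chr6:31945845-31946144.
LCN2: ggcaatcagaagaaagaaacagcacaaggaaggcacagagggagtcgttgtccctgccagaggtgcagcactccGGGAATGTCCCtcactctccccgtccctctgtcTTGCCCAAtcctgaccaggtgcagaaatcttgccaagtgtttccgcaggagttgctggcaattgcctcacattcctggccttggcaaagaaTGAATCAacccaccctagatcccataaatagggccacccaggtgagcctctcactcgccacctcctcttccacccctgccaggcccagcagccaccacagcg
CFB: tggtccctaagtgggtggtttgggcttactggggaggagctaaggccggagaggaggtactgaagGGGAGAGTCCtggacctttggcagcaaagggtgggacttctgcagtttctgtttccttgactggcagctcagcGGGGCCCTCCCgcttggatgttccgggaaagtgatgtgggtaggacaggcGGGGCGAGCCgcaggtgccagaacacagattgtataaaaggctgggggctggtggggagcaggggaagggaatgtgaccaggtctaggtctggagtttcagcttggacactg
The patterns searched, on both strands, were a loose NF-kB pattern (GGG and CC parted by any 5 bases), a C/EBP pattern TTNNGNAA and an AP-1 pattern TGANTCA. The LCN2 window held overlapping NF-kB matches from -176 to -166 relative to the gene start, a C/EBP match at -143 and an AP-1 match at -52. The CFB window held NF-kB matches at -185, at -112 with an overlapping one at -111, and at -62, and neither of the other patterns. Of 35116 RefSeq promoters of this length, 58.7% held the loose NF-kB pattern, 36.8% the C/EBP pattern and 7.71% the AP-1 pattern, so a match is a description of these letters and not a site.

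Before any comparison, 4 libraries have to be named, since most of what follows rests on them. In the CsA set the arrays numbered 3, which are 1 array each of CsA and control at 12 h and 48 h, stood apart from numbers 1 and 2. Of the 11356 genes, 500 lay higher in all 4 of them than in all 8 other arrays of the set (4.4%) and 724 lay lower (6.38%). For number 1 the counts were 28 and 26, and for number 2 they were 15 and 38. The upper quartile of the 4 arrays (6.95 to 7.10, against 7.03 to 7.15 in the other 8) and the 3′ minus 5′ difference of the GAPDH control probes (-0.18 to -0.13, against -0.18 to -0.04) lay close to those of the rest of the set. The Ra array numbered 2 at 48 h also stood apart, with an upper quartile of 6.20 and a median of 7.47 over the genes tested, against lowest values of 6.85 and 8.15 in the other arrays. All values are log2 expression as the authors deposited it. Probes of unexpressed genes sit at a gene-specific floor near 2 to 4, and log2 4 was the minimum used to count a gene as above it. The number of arrays limits the precision.

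LCN2 was near its floor in most arrays and very high in a few. Its median over 48 arrays was 3.66, the lowest value was 3.18 and the highest was 13.28, and 16 arrays were above log2 4. In the CsA set, control arrays at 12 h read 3.65, 4.19 and 10.81 for numbers 1, 2 and 3, and CsA arrays read 3.66, 3.65 and 10.96. At 48 h, control arrays read 3.67, 7.85 and 12.75 and CsA arrays read 5.28, 8.15 and 13.28. The array numbered 3 was the highest of each of these 4 groups, with and without CsA, and its mean of 11.95 was 6.94 above the 5.01 of numbers 1 and 2. All 4 were above each of the other 44 arrays, whose highest value was the 8.15 of CsA at 48 h. Since the rule that chose the genes used the replicate number, these differences are described and not tested. In bulk RNA, more cells making LCN2 and more LCN2 RNA per cell cannot be told apart.

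**Figure D1:**
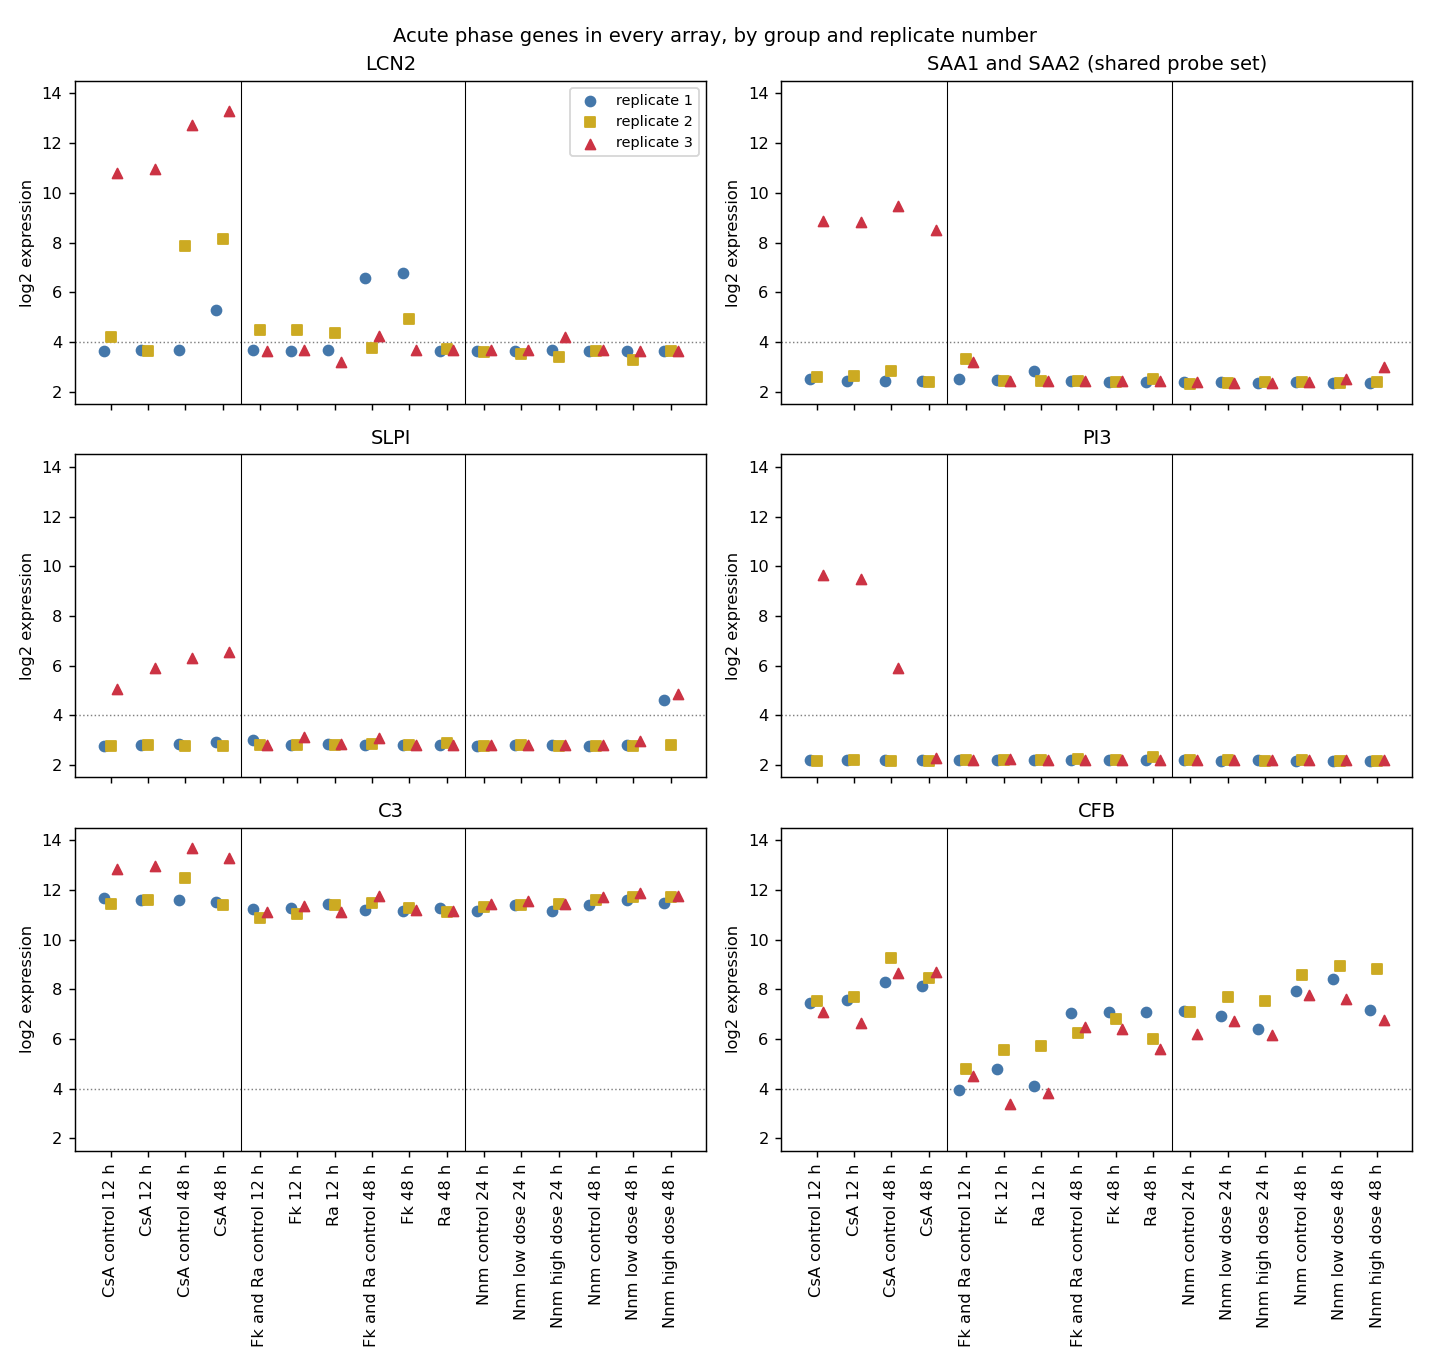
Deposited log2 expression of LCN2, the probe set shared by SAA1 and SAA2, SLPI, PI3, C3 and CFB in each of the 48 arrays, by group and replicate number, with the 3 sets divided by vertical lines and log2 4 dotted. The CsA-set arrays numbered 3 (triangles, left) lie above the rest in every panel but CFB, except the CsA array at 48 h for PI3, and SLPI is also above log2 4 in 2 Nnm high dose arrays at 48 h.

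Outside those 4 arrays LCN2 was above log2 4 in 12 arrays, 4 of them also in the CsA set. In the Fk and Ra set number 2 was the raised array at 12 h, with 4.50 in the control, 4.48 with Fk and 4.35 with Ra. At 48 h it was number 1, with 6.56 in the control and 6.78 with Fk, while the Ra array of that number read 3.65. The control array numbered 3 read 4.25 and the Fk array numbered 2 read 4.90 at 48 h. In the Nnm set a single array exceeded log2 4, the high dose at 24 h numbered 3, with 4.18. In the Fk and Ra set the highest array thus had number 2 at 12 h and, in the control and with Fk, number 1 at 48 h, whereas in the CsA set it had number 3 at both times.

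The shared SAA1 and SAA2 probe sets gave the widest separation of the 4 arrays from the others. The probe set for SAA1 and SAA2 read 8.86 in the control and 8.82 with CsA at 12 h, and 9.48 and 8.50 at 48 h, all numbered 3. Its highest value in the other 44 arrays was 3.32. The probe set that also matches SAA4 readthrough transcripts read 8.35, 8.42, 8.91 and 8.14 in the same order, against a highest value of 4.68 elsewhere. Unlike LCN2, both probe sets were low in the CsA-set arrays numbered 2 at 48 h.

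The elastase inhibitors were near their floor in nearly all arrays outside these 4. SLPI read 5.07 in the control and 5.91 with CsA at 12 h, and 6.29 and 6.54 at 48 h, against a mean of 2.80 in numbers 1 and 2. All 4 were above the other 44 arrays, of which 2 exceeded log2 4. PI3 read 9.63 in the control and 9.48 with CsA at 12 h, both numbered 3, and about 2.2 in their other arrays. At 48 h it read 5.89 in the control numbered 3 and 2.30 with CsA, which was no longer apart from the 2.31 that was the highest elsewhere. PI3 therefore exceeded log2 4 in 3 arrays, all numbered 3 in the CsA set. A second PI3 probe set gave 9.22, 9.27, 3.66 and 2.19 in the same 4 arrays, so it had the same order of times and a lower 48 h control.

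The complement genes were expressed throughout. C3 was above log2 10 in every array, with a median of 11.43 and a range of 10.89 to 13.69. Its CsA-set arrays numbered 3 read 12.85 in the control and 12.97 with CsA at 12 h, and 13.69 and 13.29 at 48 h, while numbers 1 and 2 ran from 11.40 to 12.48. Their means differed by 1.54, and the 4 arrays were above all 44 others. The highest of those 44 was the control numbered 2 at 48 h, an array in which LCN2 was also raised.

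CFB did not share the pattern. Its mean was 7.77 in the 4 arrays numbered 3 and 8.05 in the 8 others of the CsA set, a difference of -0.28. At 12 h number 3 was the lowest array of its group, with 7.08 in the control and 6.65 with CsA, and at 48 h it was within the range of the controls (8.65) and the highest with CsA (8.69). Of the 5 members with a probe set of their own, LCN2 and C3 were thus higher in number 3 without overlap, beside 4.4% of all genes. LCN2 was higher by a gap of more than 1, beside 0.335% of all genes. SLPI and PI3 are not counted here, since they passed the minimum of 3 arrays above log2 4 only through the arrays numbered 3. The CsA array of PI3 at 48 h was also at the floor. Among all genes ordered by that gap, LCN2 was 3rd and C3 133rd, and SLPI, which those arrays kept, was 6th. Nothing is read from these shares, because the members were chosen for the pattern.

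Within the arrays numbered 3 the members also differed in time. LCN2 was higher at 48 h than at 12 h by 1.94 in the control and 2.32 with CsA. PI3 went the other way, by -3.74 in the control and, with CsA, from 9.48 down to its floor. C3 was higher at 48 h by 0.84 and 0.32, and SLPI by 1.22 and 0.63. Each of these is a difference of 2 single arrays.

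The other genes of the response were taken from lists chosen for their known roles, with earlier results of these data known. They are counted for the same 4 arrays against the 8 others of the CsA set. Of all genes, 4.4% lay higher there without overlap and 6.38% lay lower. Of 7 measured chemokine and adhesion genes, 4 lay higher without overlap and 0 lower, with a median difference of 3.15 against -0.01 over all genes. CCL20, which attracts lymphocytes and dendritic cells, had a mean of 13.01 against 7.71, and CXCL5, a neutrophil attractant, 12.60 against 7.77. CXCL2 had 13.11 against 9.96 and CXCL8, or interleukin 8, 14.56 against 12.80. All 4 were lower at 48 h than at 12 h in the arrays numbered 3, as PI3 was. CCL20 was 14.41 in the control and 14.55 with CsA at 12 h, and 12.25 and 10.82 at 48 h. Other CXCL2 probe sets read 4.92 against 3.24, with overlap, and 2.56 against 2.53. Other CXCL5 probe sets read 11.6 against 6.3, without overlap, and 4.38 against 2.88, with overlap. Another CXCL8 probe set lay higher without overlap, at 13.85 against 12.72.

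Of 26 measured genes of NF-kB, IL-1, IL-17 and IL-6 signalling, 7 lay higher and 0 lower, beside 4.4% and 6.38% of all genes. The median difference was 0.54. The cytokine IL6 had a mean of 10.36 against 4.73, with 12.30 and 12.26 at 12 h and 10.01 and 6.89 at 48 h for control and CsA. IRAK2, an IL-1 receptor kinase, had 8.62 against 6.19, and TRAF3IP2, the adaptor of the IL-17 receptor, 8.94 against 7.18. RELA, CEBPD, IL1R1 and LIF made up the rest, with differences of 0.54 to 0.79. Other IRAK2 probe sets read 4.32 against 3.25, with overlap, and 2.53 against 2.51. Another TRAF3IP2 probe set was at the floor, at 2.72 against 2.69. The NF-kB inhibitors TNFAIP3 and NFKBIA had higher means, by 2.72 and 1.33, but their arrays overlapped.

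Complement and acute phase genes outside the members did not move as a group. Of 10 complement genes, C1R (8.95 against 7.41) and the C5a receptor C5AR1 (7.03 against 4.22) lay higher, and CFI and C5 lay lower. CFI, the protease that inactivates C3b, was at 2.67 against 6.94, and its second probe set also lay lower, at 2.03 against 6.39. C5, the component after C3 in the cascade, was at 4.93 against 8.83. Of 7 other acute phase and antimicrobial genes, PTX3 lay higher (11.73 against 7.96) and WFDC2, which carries the same type of domain as SLPI and PI3, lay lower (7.71 against 9.27). Other WFDC2 probe sets were at the floor, with highest values of 3.17 and 2.24 over all arrays. None of 7 glucocorticoid targets was apart from the other arrays. With 4.4% of all genes higher and 6.38% lower, nothing is read from the counts in lists of 7 genes.

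**Figure D2:**
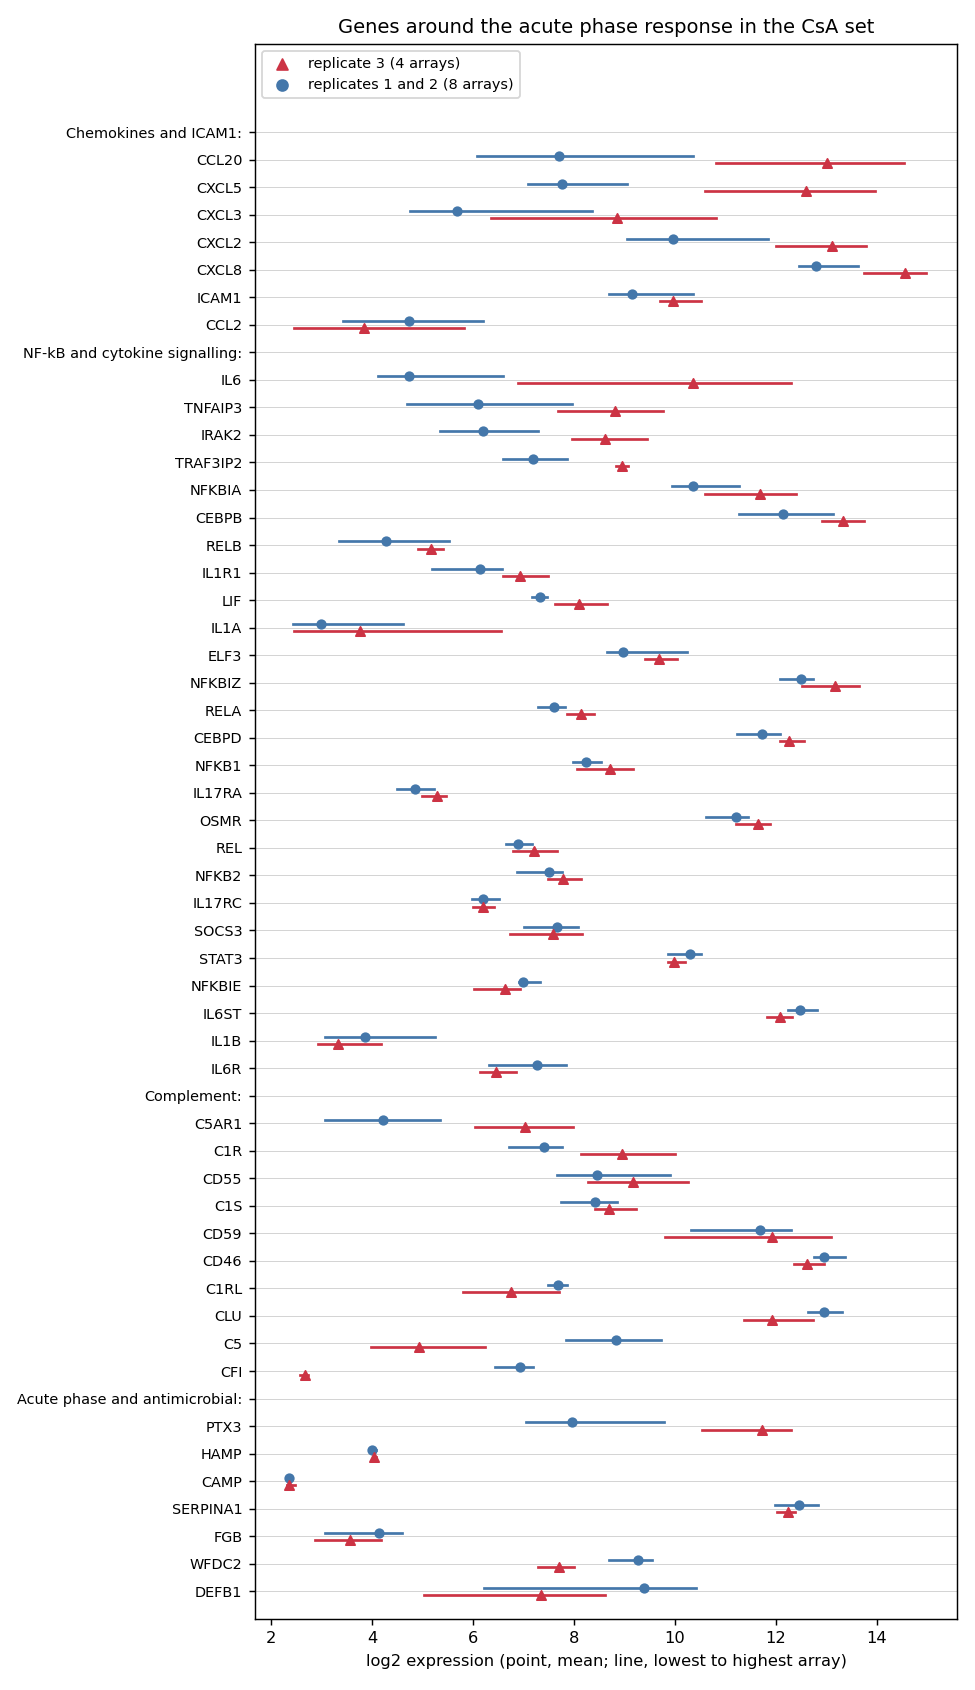
Log2 expression of the measured genes of 4 lists in the CsA set, with the mean (point) and the lowest to highest array (line) of the 4 arrays numbered 3 (red triangles) and of the 8 numbered 1 and 2 (blue circles). CCL20, CXCL5, IL6 and PTX3 lie far higher in number 3, and CFI and C5 far lower.

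Markers of cell types were read in the same arrays. Of 10 leukocyte markers, 9 had a probe set, and 8 of them were below 3.1 in all 4 arrays, among them PTPRC, CD14, ITGAM, MPO and ELANE. LAPTM5 ran from 2.58 to 6.13 in the 4 arrays and reached 3.40 elsewhere. On the summed linear scale, as log2, the 9 ran from 5.65 to 6.82 in number 3 and from 5.57 to 5.63 in numbers 1 and 2. The 6 epithelial markers summed to 13.58 to 14.25 against 14.51 to 14.92. EPCAM (11.96 against 13.35) and CDH1 (4.11 against 8.59) were lower without overlap, beside 6.38% of all genes. A second CDH1 probe set, at 2.20 against 2.93, overlapped. The 5 fibroblast markers summed to 11.70 to 12.50 against 9.58 to 11.87, and 0 of the 3 measured above the minimum were apart. Of those 3, the means differed by 1.28 for DCN, -0.52 for COL1A1 and 0.0012 for LUM. The 9 proximal tubule markers on the array summed to 10.51 to 11.28 in number 3 against 10.16 to 10.51 in numbers 1 and 2. Of these 9, PAX8 was clearly expressed (9.95 to 11.65 over all 48 arrays) while LRP2, CUBN, AQP1 and SLC34A1 were below log2 4 everywhere. The part of these markers in the members' levels was not tested.

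The genes whose pattern was most like that of LCN2 are given by Pearson correlation over the 48 arrays, as a description. The 8 highest outside the members were GK3 (0.89), CTSS (0.87), GK6P (0.86), RASGRP1 (0.86), SCG5 (0.84), SHISA3 (0.83), C6orf58 (0.81) and LCP1 (0.81). Without the 4 CsA-set arrays numbered 3 these were 0.43, 0.38, 0.29, 0.54, 0.64, 0.64, -0.10 and -0.04 in that order. GK3 and GK6P are near-identical copies of the glycerol kinase gene, so their probe sets are uncertain. Among the members the correlation with LCN2 was 0.82 for C3, 0.80 for SLPI, 0.67 for PI3 and 0.31 for CFB. Without the 4 arrays numbered 3 it was 0.15 for C3, -0.11 for SLPI, -0.09 for PI3 and 0.27 for CFB. The likeness of C3, SLPI and PI3 to LCN2 therefore rested on those 4 arrays. Over deviations from the group means, which leave out treatment and time, the order began with MIR146A (0.90), the transcript that holds a microRNA induced by NF-kB, then JAK1 (0.90), a kinase of cytokine receptors, and ENOX2 (0.89). A second MIR146A probe set was at the floor, with a highest value of 2.95 over all arrays. The points share arrays, sets and replicate numbers.

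CFB was the member that was higher at the later time throughout, by the probe set with the higher mean. Its mean was higher at 48 h than at the earlier time in 8 of 8 treatment arms, by 0.89 to 2.18. It was also higher in 24 of 24 pairs of arrays with the same arm and number. Of these pairs, 9 were in the Fk and Ra set, where the replicate numbers did not pair the arrays. The share of all genes with such counts is not given. In the Fk and Ra set, control arrays read 3.96, 4.81 and 4.51 at 12 h and 7.04, 6.26 and 6.50 at 48 h for numbers 1 to 3. With Fk they read 4.79, 5.56 and 3.38, then 7.07, 6.79 and 6.41, and with Ra 4.10, 5.70 and 3.84, then 7.08, 6.00 and 5.58. The times did not overlap in the control and with Fk, and met only in Ra, where the 12 h array numbered 2 lay above the 48 h array numbered 3.

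In the CsA set CFB started higher. Control arrays read 7.44, 7.54 and 7.08 at 12 h and 8.31, 9.25 and 8.65 at 48 h, and CsA arrays 7.58, 7.70 and 6.65, then 8.12, 8.44 and 8.69, without overlap in either arm. In the Nnm set control arrays read 7.11, 7.08 and 6.22 at 24 h and 7.94, 8.58 and 7.75 at 48 h. The low dose gave 6.94, 7.68 and 6.72, then 8.41, 8.94 and 7.60, and the high dose 6.39, 7.52 and 6.16, then 7.17, 8.81 and 6.77. The times overlapped at both doses of Nnm and not in its control. The Nnm arrays numbered 2 had a mean of 8.10, against 7.33 for number 1 and 6.87 for number 3.

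The arms without overlap were thus 5 of 8. The share of all genes higher without overlap was 21.3% with CsA, 15.4% in its control, 11.9% in the Nnm control, 24.1% in the Fk and Ra control and 18% with Fk. Time was part of how the genes were chosen, so no test is given. Another CFB probe set stayed between 4.18 and 5.79 over all arrays and was higher at 48 h in 14 of 24 pairs. Its differences with time were -0.09 to 0.37, so the higher values at 48 h rest on the probe set with the higher mean. Levels at 12 h also differed between the sets, with a mean of 7.33 in the CsA set and 4.52 in the Fk and Ra set. Set and laboratory cannot be told apart from other differences between the experiments.

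**Figure D3:**
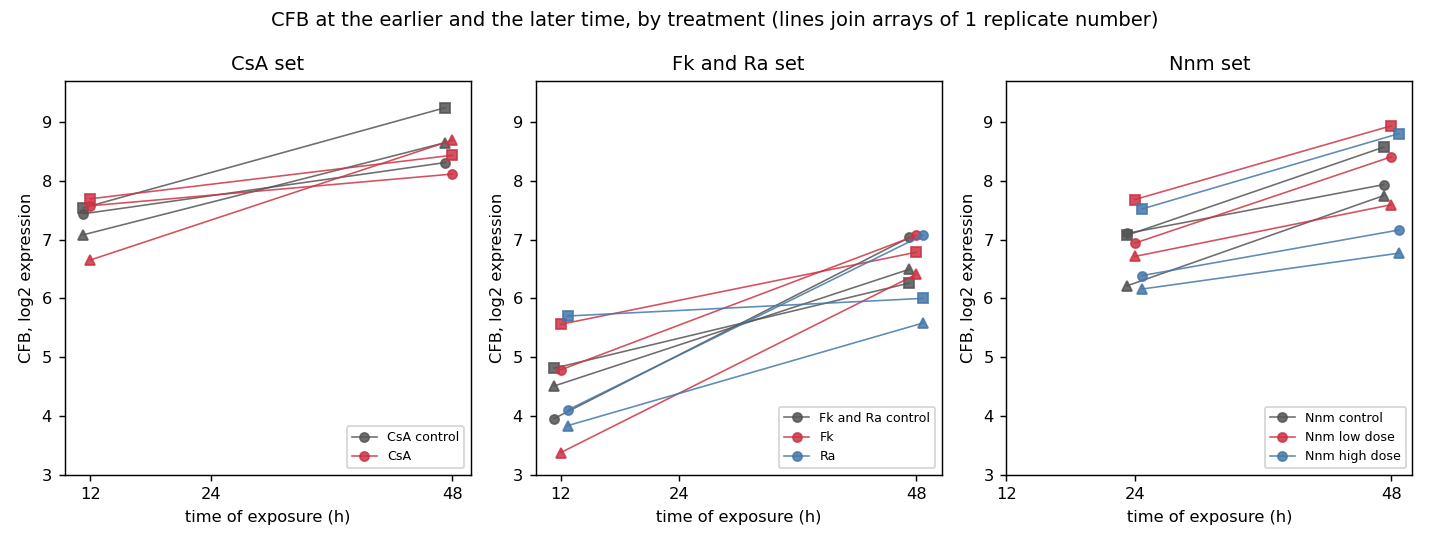
CFB log2 expression at the earlier and the later time in the CsA, Fk and Ra, and Nnm sets, with a line joining the arrays of 1 replicate number (circle 1, square 2, triangle 3) and arms set slightly apart along the time axis. Every one of the 24 lines runs upward, and the Fk and Ra set starts lowest. In that set the lines join arrays that the replicate numbers did not pair.

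The other members were not higher at 48 h in every arm. LCN2 had a higher mean at 48 h by 2.81 with CsA and 1.87 in its control, by 1.18 with Fk and 0.91 in the Fk and Ra control. The difference was -0.05 with Ra, or 0.20 with arrays centred on their medians, and -0.10 to 0.01 in the 3 Nnm arms. Its arrays overlapped in all 8 arms. In the CsA set, though, LCN2 was higher at 48 h in 6 of 6 pairs of arrays with the same arm and number, by 0.02 to 4.50. The pair that differed by 0.02, control number 1, was at the floor at both times (3.65 and 3.67). Values at the floor have no order, so that pair shows no change. C3 was higher at 48 h in 9 of 9 such pairs of the Nnm set, by 0.19 to 0.34, and in 3 of 6 pairs of the CsA set and 4 of 9 of the Fk and Ra set. The share of all genes with such counts of pairs is not given. C3 was higher without overlap at the high (0.31) and the low (0.27) dose of Nnm, where 5.86% and 6% of all genes were. SLPI was within 0.43 of its earlier mean in 7 arms, and higher by 1.28 at the high dose of Nnm.

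The question of the design, whether a compound changed these genes against the vehicle of its set and time, was addressed with a limma fit over all genes with Benjamini-Hochberg adjustment. No member passed an adjusted p of 0.05 in any of the 10 treatment comparisons, the 4 between doses or compounds, or the 5 of effects between times. The share of all genes called was 0% with CsA at 12 h and 1.02% at 48 h, 0% with Fk at both times, and 0.0704% with Ra at 12 h and 18.5% at 48 h. With Nnm it was 8.29% and 5.22% at the low dose and 23.1% and 16.8% at the high dose. Where the share was 0, genes with an unadjusted p under 0.05 numbered 36 for CsA at 12 h, and 712 and 311 for Fk at 12 h and 48 h. The share was 0.00881% and 0.0176% for high against low dose at 24 h and 48 h, and 0.00881% and 17.3% for Fk against Ra at 12 h and 48 h. For the change of effect with time it was 0% for CsA, Fk and the low dose of Nnm, 3.62% for Ra and 0.00881% for the high dose.

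For LCN2, CsA differed from its control by -0.13 ± 1.70 (SE, n = 3 arrays each) at 12 h and by 0.81 ± 1.70 at 48 h, where limma gave adjusted p = 0.941. The SE uses 1 within-group spread per gene, estimated over all 48 arrays, so it was 1.70 in every treatment comparison of LCN2. The 95% interval at 48 h ran from -2.64 to 4.27 in this fit. By number, CsA minus control at 48 h was 1.61, 0.30 and 0.53, the first of these against a control at the floor. With the replicate number as a block, which pairs the arrays of this set, the SE was 0.57, the interval ran from -0.35 to 1.98 and the adjusted p was 0.515. With Ra at 48 h LCN2 read 3.65, 3.72 and 3.66, all at the floor, and its controls read 6.56, 3.75 and 4.25, of which 2 were above log2 4. The difference was -1.18 ± 1.70, with limma adjusted p = 0.688. In the Nnm set LCN2 lay between 3.27 and 4.18 in treated and control arrays, so close to the floor that these values set no limit on a change.

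The call of SLPI at the high dose of Nnm depended on the fit. At 48 h its arrays read 4.60, 2.79 and 4.87 for numbers 1 to 3, against 2.78, 2.79 and 2.81 in the controls and 2.80, 2.76 and 2.95 at the low dose. Numbers 1 and 3 were raised and number 2 was at the floor, level with its control. The difference from control was 1.30 ± 0.75 with limma adjusted p = 0.248. With the block, which also pairs the arrays of the Nnm set, the SE was 0.27 and the adjusted p 0.000584. The adjusted p was 0.0242 with the Nnm set fitted alone, and 0.000666 without the 4 CsA-set arrays numbered 3, where the SE was 0.25. In these last fits SLPI was kept by the minimum as set over all 48 arrays, since without those 4 arrays it exceeded log2 4 in 2 arrays and would not have passed it. Each fit uses 1 spread for SLPI, and most groups were at its floor. The SD was 1.13 in the high dose group at 48 h and 0.016 in its control. The small adjusted p-values therefore do not measure the spread of the raised group, and no change is read from them. High against low dose at 48 h differed by 1.25, with limma adjusted p = 1 and 0.0733 with the block, and the effect at 48 h exceeded that at 24 h by 1.27, with 0.93 and 0.246. At 24 h the high dose read 2.81, 2.78 and 2.81.

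C3 and CFB passed in no treatment comparison of the fit over all arrays. C3 differed from control with CsA at 48 h by -0.07, -1.08 and -0.39 for numbers 1 to 3, a mean of -0.51 ± 0.38 with limma adjusted p = 0.697. The 95% interval ran from -1.29 to 0.26, and this difference passed in 1 alternative fit, given below. In the other 9 treatment comparisons C3 lay between -0.28 and 0.24. CFB had its largest difference with Nnm at the high dose at 48 h, -0.51 ± 0.51 with limma adjusted p = 0.544, and its values there were 0.77 and 0.98 below control for numbers 1 and 3 and 0.23 above for number 2. PI3 read 2.30 with CsA and 5.89 in the control at 48 h for number 3, and its mean difference was -1.20 ± 1.24, which rests on that pair since the other 4 arrays were at the floor.

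**Figure D4:**
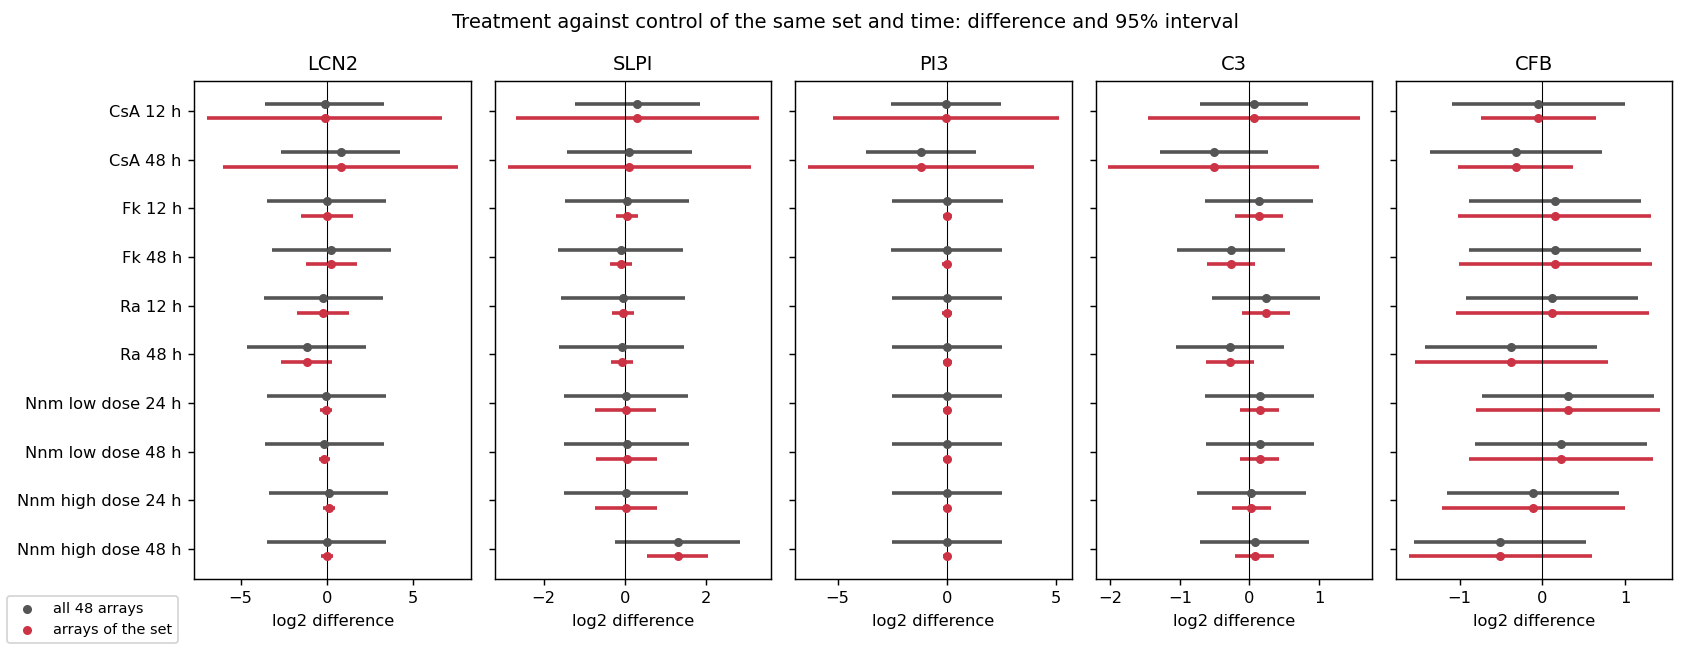
Treated minus control log2 expression for LCN2, SLPI, PI3, C3 and CFB in the 10 treatment comparisons, with 95% intervals from the fit over all 48 arrays (grey) and over the arrays of the set alone (red), on a separate scale for each gene. Intervals for LCN2, SLPI and PI3 are widest for CsA in its own set, and SLPI at the high dose of Nnm at 48 h is the only one whose red interval excludes 0.

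Some genes that work with the members were called with Nnm, where 5.22% to 23.1% of all genes were called. Those named here were picked from the called genes with the largest changes. C5AR1, the receptor for the C5a fragment, rose by 3.71 ± 0.89 (SE) at the low dose and 4.31 ± 0.89 at the high dose at 24 h, and by 3.36 ± 0.89 at the high dose at 48 h, with limma adjusted p = 0.00898, 0.000884 and 0.0089. With each of the 6 arrays left out in turn it passed in 3, 6 and 4 of 6 fits. The IL-1 receptor IL1R1 rose in all 4 Nnm comparisons, by 1.67 to 2.65, and TLR2, a receptor for bacterial lipoproteins and SAA, by 1.40 to 2.11. TLR2 passed with any 1 array left out in all 4 comparisons, and IL1R1 in all but the low dose at 48 h, where it passed in 2 of 6 fits. The antimicrobial peptide gene CAMP rose at 48 h by 2.44 ± 0.47 at the low and 2.76 ± 0.47 at the high dose, with adjusted p = 0.00149 and 0.000156, and passed with any 1 array left out. CXCL8 fell at the high dose at 24 h by 2.61 ± 0.80, with adjusted p = 0.0174, and passed in 3 of 6 such fits. Counted by list at the high dose at 48 h, 2 of 10 complement genes, 2 of 26 signalling genes, 1 of 7 acute phase genes and 3 of 7 glucocorticoid targets rose and 0 fell. Of 7 receptors and partners of the members 2 rose and 1 fell, the fall being ANXA2 by 0.59, and 0 of 7 chemokine genes passed in either direction. The medians were 0.33, 0.35, 0.49, 0.41, -0.0025 and -0.18 in that order, against 0.02 over all genes, of which 8.89% rose and 7.88% fell. With lists this short nothing is read from the counts, and counts for the other Nnm comparisons are not given.

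With the other compounds few of these genes were called. With Ra at 48 h C5AR1 fell by 2.48 ± 0.89 and IL6R, the IL-6 receptor, by 1.53 ± 0.41, with limma adjusted p = 0.0467 and 0.0089. Without the Ra array numbered 2, which stood apart, the differences were -2.46 and -1.41 with adjusted p = 0.131 and 0.0554, and the genes called for Ra at 48 h went from 2106 (1769 lower, with a median of -0.18 over all genes) to 817 (394 lower). The count was 878 without the control array numbered 1, 1042 without the control array numbered 2 and 2418 without the control array numbered 3. It was 3084 without the Ra array numbered 1 and 2067 without the Ra array numbered 3. C5AR1 passed in 2 of 6 fits with 1 array left out and IL6R in 5 of 6. With CsA at 48 h CD59, which blocks the terminal complement complex, fell by 1.27 ± 0.32, with adjusted p = 0.0442, and passed in 1 of 6 such fits. Fk against its controls called none of them. The doses of Nnm share controls, as do Fk and Ra, so their values are not independent of each other.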

How the data were processed

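Total RNA of 48 HK-2 cultures was hybridised to 1 oligonucleotide array each. The deposited log2 expression values were computed by the authors with GCRMA (named in the submitters' processing notes, version not given) and were used without further normalization. GCRMA shrinks unexpressed probe sets to a floor, so differences between low values are compressed and spreads there are small. Of 54675 probe sets, 62 were controls, 41091 had 1 symbol, 1801 several and 11721 none in the platform annotation. Those above log2 4 in at least 3 arrays were kept, with the probe set of highest mean standing for a gene (11356 genes).

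A mean per group was fitted over all 48 arrays with limma 3.58.1 in R 4.3.3 (lmFit and eBayes, two-sided, Benjamini-Hochberg within each of 19 contrasts, called under 0.05), after a test on simulated data. Members, lists and named genes were chosen with earlier results of these data known. Genes named outside the members were the 8 most like LCN2, up to 3 called genes of each list per comparison, and list genes whose arrays did not overlap. TNFAIP3, NFKBIA and the marker genes were named after their values were seen. Levels by replicate number and by time chose the members and were not tested. Alternatives were the replicate block, each set alone, other filters, probe sets and centring, and each array left out.

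Same-numbered arrays were checked for pairing by the correlation of their deviations from the group means. All 18 pairs of the CsA set (0.24 to 0.93) and all 45 of the Nnm set (0.14 to 0.79) were above 0.1, and 19 of 45 in the Fk and Ra set, so the first 2 sets were taken as paired.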

Additional observations from a re-analysis of the deposited data

How the results depend on the processing

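The count of members called for a treatment, 0 in the fit over all arrays, was 1 with the replicate block, with each set alone, with all arrays numbered 1 left out and the block, and with all arrays numbered 2 left out and the block. It was also 1 under settings chosen after seeing the data, namely each set alone with the block and the 4 CsA-set arrays numbered 3 left out. That member was SLPI with Nnm at the high dose at 48 h, except with number 1 left out, where it was C3 with CsA at 48 h (-0.74, limma adjusted p = 0.0475). With number 2 left out and the block, the counts between doses and between times were 1 each, both SLPI. The replicate block changed no other member's call. In the SLPI fits the spread came mostly from groups at the floor, so those calls do not measure the spread of the raised group. With any 1 array left out the counts stayed at 0. Of 95 member differences, none of them called, 65 changed sign under some alternative.

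Without a test, 300 values with 1 array left out moved by less than the spread between replicates. Leaving out 1 array always moves a group mean by less than the spread within that group. This check could therefore not have failed, and nothing is read from it. The CFB differences with time were 0.0069, -0.090, 0.069, 0.30, 0.24, 0.13 and 0.37 with its other probe set, for CsA, CsA control, Nnm control, Nnm low dose, Fk and Ra control, Fk and Ra. After centring each array on its median, differences with time that moved were 0.12 for C3, 0.26 for SLPI and 0.29 for PI3 with Ra, 0.042 for SLPI and 0.014 for PI3 in the Nnm control, -0.027 for PI3 at the high dose of Nnm and -0.068 for PI3 with Fk. The difference with time for LCN2 with Ra, not in this list, changed sign on centring, from -0.052 to 0.20. Arrays give no counts, and values at the floor have no order.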

Other observations

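Other genes also stood apart in the CsA-set arrays numbered 3, and are named here after their values were seen. Only CLEC4E and MMP1 had a wider gap to numbers 1 and 2 than LCN2 among the higher genes tested. CLEC4E, a receptor of innate immune cells for microbial glycolipids, had a mean of 12.40 against 3.85 in numbers 1 and 2, and its second probe set 7.22 against 2.44. MMP1, the interstitial collagenase, had 12.36 against 5.35. XDH, the enzyme that makes uric acid, had 6.33 against 2.32, and THBS2, a matrix glycoprotein, 6.40 against 3.29. In the other direction the cadherin CDH3 had 4.89 against 8.16, the receptor FGFR2 4.70 against 9.27 and the aminopeptidase ENPEP 5.53 against 9.02. CLEC4E was lower at 48 h (12.54 in the control and 10.16 with CsA) than at 12 h (13.53 and 13.36), as were MMP1 and PI3 and unlike LCN2.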
